A study of Homo sapiens with 4 samples.

Results

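The peaks described here lie on human chromosomes 4, 13 and 18 and come from CLIP-seq of SAF-A, in which RNA crosslinked to a protein by ultraviolet light is recovered with that protein and sequenced. They were chosen by position alone: every listed peak on these 3 chromosomes, less those with a midpoint between 53600000 and 72000000 on chromosome 13. That gave 28337 of the 278959 peaks in 4 lists, with 15698 on chromosome 4, 6489 on chromosome 13 and 6150 on chromosome 18. The stretch left out held 1029 peaks. All 4 samples were HCT116, an established human colorectal carcinoma line, with no treatment or genetic change named in the labels, and 1 line stands for the cell type. The pull-downs (2 samples) held RNA from an immunoprecipitation with a SAF-A antibody. The inputs (2 samples) held RNA of the same kind of lysate without it, cut from the same size range of the membrane. No label states that replicates came from separate cultures. The p-values therefore speak for the spread among 4 samples, and that spread may be technical.

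SAF-A, also called hnRNP U, is an abundant nuclear protein with both a DNA-binding and an RNA-binding domain, and it is known for contacts with nascent and chromatin-bound RNA. Chromosomes differ in how densely they carry genes and in where they lie in the nucleus, and chromosome 18 is a textbook case of a gene-poor chromosome near the nuclear edge. A CLIP peak marks a place where crosslinked fragments piled up, so it follows both the contacts of the protein and the amount of RNA there. In such bulk lists, more contacts per RNA molecule and more molecules of the RNA cannot be told apart except through the input.

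The description as gene-poor was checked against the RefSeq annotation of GRCh38.p14, counting protein-coding genes over the annotated span of each chromosome. Chromosome 13 carried 2.96 such genes per Mb, chromosome 18 carried 3.36 and chromosome 4 carried 4.04. These were the 3 lowest values of the 22 autosomes, and the other autosomes together carried 7.13. The peak positions themselves match GRCh37 and not GRCh38, since 33 peaks on chromosome 4 and 39 on chromosome 13 run beyond the last base of that chromosome in GRCh38, and 0 do so in GRCh37. Positions below are therefore 1-based GRCh37 positions as deposited, windows carry no gene names, and exons, introns and untranslated regions were not assigned.

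The lists held 29386 and 42256 peaks in the inputs (replicates 1 and 2), against 96061 and 111256 in the pull-downs, and read depth is unknown. Of these, 2568 and 3805 input peaks against 10287 and 11677 pull-down peaks lay on the 3 chromosomes. Because list lengths differ, levels are given as a share of a library's list, in percent or per 10000 listed peaks.

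The first comparison asked whether gene-poor chromosomes take a different part of the SAF-A pull-down than of its input. They took more of the pull-down. Chromosomes 4, 13 and 18 together held 8.74% and 9.0% of the input lists (replicates 1 and 2) and 10.7% and 10.5% of the pull-down lists. The means were 8.87% ± 0.19 in the inputs and 10.6% ± 0.15 in the pull-downs (SD, n = 2 each), a log2 ratio of 0.26. The groups did not overlap, and the gap was larger than the spread within either.

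Each chromosome showed the same order. On chromosome 4 the share was 4.79% and 4.94% in the inputs, against 5.95% and 5.83% in the pull-downs, a log2 ratio of 0.27. Chromosome 13 took 1.99% and 2.06% of the inputs and 2.43% and 2.42% of the pull-downs, a log2 ratio of 0.26. On chromosome 18 the shares were closest, with 1.96% and 2.0% in the inputs, against 2.33% and 2.24% in the pull-downs, a log2 ratio of 0.21. Neither group overlapped the other on any of the 3. The two-sided exact permutation p was 0.333 for each chromosome and for the 3 together, the smallest that 2 against 2 samples allow, so no such single value can pass 0.05. For comparison, the gene-rich chromosomes 16, 17, 20 and 22 together went the other way, with 13.1% and 13.2% of the inputs and 10.7% and 10.9% of the pull-downs (log2 ratio -0.28, exact permutation p 0.333). The other autosomes together, also without overlap, held 85.9% and 85.7% of the inputs and 83.8% and 84.2% of the pull-downs. Single other autosomes were not compared, so a lack of overlap is not shown to be particular to these 3.

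**Figure D1:**
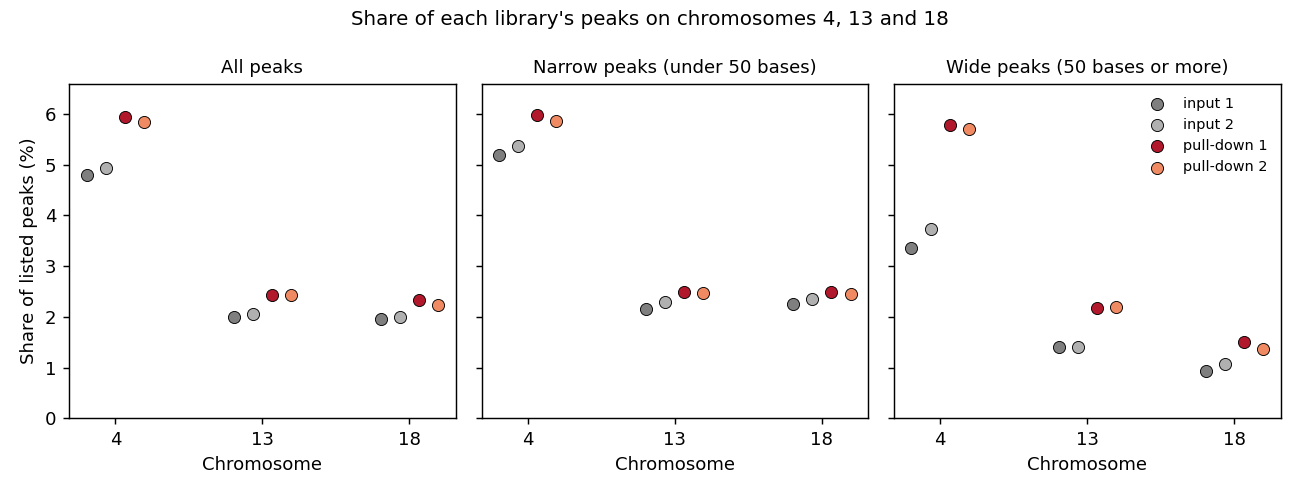
Share of each library's listed peaks (%, vertical axis) on chromosomes 4, 13 and 18, for all peaks, for narrow peaks and for wide peaks, with 1 point per library. Both pull-downs lie above both inputs on every chromosome in all 3 panels, and the gap is widest for wide peaks, where chromosome 4 goes from 3.35% and 3.74% in the inputs to 5.78% and 5.71% in the pull-downs.

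Peaks differed in width from 2 to 201 bases, and those of 50 bases or more are called wide here. The higher pull-down share was seen for both kinds and was larger for wide peaks. Among wide peaks alone, the 3 chromosomes held 5.69% and 6.20% in the inputs, against 9.47% and 9.28% in the pull-downs, a log2 ratio of 0.66. Among narrow peaks alone, the shares were 9.60% and 10.0% in the inputs, against 10.9% and 10.8% in the pull-downs, a log2 ratio of 0.15. By chromosome the wide ratios were 0.70, 0.64 and 0.53 on chromosomes 4, 13 and 18, against 0.16, 0.15 and 0.10 for narrow peaks. Groups did not overlap in any of these, and each exact permutation p was 0.333. Nor did they overlap on the other autosomes together for either width, where the pull-downs were lower. The difference between the wide and the narrow ratio was not tested.

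In the mix of wide and narrow peaks, input and pull-down overlapped on these chromosomes, while on the other autosomes both inputs held more wide peaks than both pull-downs. Wide peaks made up 14.4% and 18.3% of the peaks on the 3 chromosomes in the inputs, against 14.4% and 17% in the pull-downs. The groups overlapped, with means of 16.3% ± 2.7 and 15.7% ± 1.9 (SD, n = 2 each) and a difference of -0.66 percentage points (exact permutation p 0.667). That difference changed sign without input replicate 2, to 1.28, and without pull-down replicate 1, to 0.67, so it has no settled direction. On the other autosomes the wide share was 23.6% and 28.2% in the inputs, against 16.9% and 20.0% in the pull-downs. On the gene-rich chromosomes 16, 17, 20 and 22 it was 31.7% and 34.9% in the inputs, against 20.3% and 24.7% in the pull-downs.

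Within every library the gene-poor chromosomes held a smaller part of wide peaks than the other autosomes, and the gap was narrower in the pull-downs. It was -9.19 and -9.92 percentage points in the inputs, against -2.55 and -3.03 in the pull-downs. All 4 libraries were negative, for which the two-sided exact sign-flip test gives 0.125, the smallest it allows with 4 libraries. The difference between pull-down and input in that gap was 6.77 percentage points (exact permutation p 0.333), and leaving out any 1 library moved it only between 6.40 and 7.13.

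The 3 chromosomes were not alike in width. Chromosome 18 had the smallest wide share in every library, 10.6% and 14.1% in the inputs, against 10.5% and 11.8% in the pull-downs. Chromosome 4 held 15.5% and 20.1% in the inputs, against 15.8% and 18.8% in the pull-downs. Chromosome 13 lay near chromosome 4, at 15.6% and 18% in the inputs, against 14.5% and 17.5% in the pull-downs, and the spread between replicates was larger than the distance between both chromosomes. The median wide peak spanned 112 and 108 bases in the inputs, against 102 and 98 in the pull-downs, and the median narrow peak 11 and 12 bases in the inputs, against 13 in both pull-downs. The deposited score, whose meaning is not stated, had medians of 14 and 15 for wide peaks in the inputs, against 15 and 14 in the pull-downs, below the medians of narrow peaks, at 19 and 18 in the inputs, against 20 and 21 in the pull-downs.

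**Figure D2:**
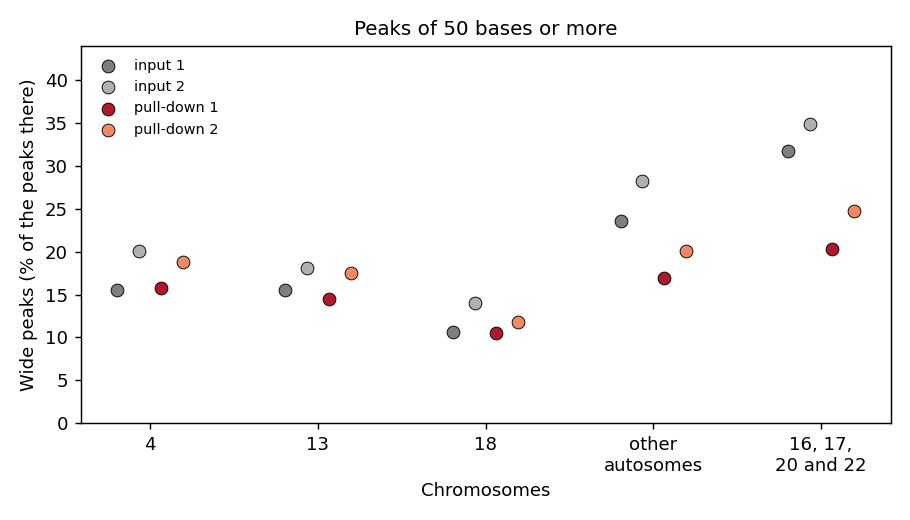
Wide peaks (50 bases or more) as a percent of all peaks (vertical axis) on chromosomes 4, 13 and 18, on the other autosomes and on the gene-rich chromosomes 16, 17, 20 and 22, with 1 point per library. Input and pull-down points interleave on chromosomes 4, 13 and 18, from 10.5% to 20.1%, while both inputs lie above both pull-downs in the 2 columns on the right.

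The next comparison went along each chromosome in windows of 1 Mb. Peaks were found in 189 windows of chromosome 4, 79 of chromosome 13 and 76 of chromosome 18, and 172, 75 and 73 of them passed a filter of 1.5 peaks per 10000 on the mean of the 4 libraries. Pull-down and input were compared in limma over all 2706 windows of the genome that passed, with Benjamini-Hochberg adjustment over all of them. Of the 320 windows tested on the 3 chromosomes, 71 (22.2%) were higher in the pull-down at an adjusted p of 0.05, where 15.4% of all windows were. Only 9 (2.81%) were lower, where 11.6% of all windows were. The higher windows were 40 on chromosome 4 (23.3%), 19 on chromosome 13 (25.3%) and 12 on chromosome 18 (16.4%). The share on chromosome 18 was thus near that of all windows. The lower ones were 6, 2 and 1 (3.49%, 2.67% and 1.37%). The median log2 ratio over the tested windows was 0.18, 0.29 and 0.09 on the 3 chromosomes, against 0.10 over all windows. Of the 71 higher windows, 18 had a mean under 1.5 per 10000 in the inputs and passed through the pull-downs alone, so they had to be higher, as had 114 of the 416 higher windows of the genome. Of the 292 windows on the 3 chromosomes whose inputs reached 1.5, 53 were higher (18.2%, against 12.1% of all such windows).

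These counts moved with the libraries and the scaling, and so did the share among all windows. With each library centred on its median window, 35 windows were higher (8.06% of all windows were) and 8 lower (11.3% of all windows were). That split was 20 and 5 on chromosome 4 (11.6% and 2.91%), 8 and 2 on chromosome 13 (10.7% and 2.67%), and 7 and 1 on chromosome 18 (9.59% and 1.37%). In the fit by list length, both counts fell far without either pull-down and rose without either input. Those of all windows moved the same way. The median log2 ratio of the windows tested on the 3 chromosomes was 0.15 or 0.21 without pull-down replicate 1 or 2, against 0.07 or 0.11 over all windows. It was 0.23 or 0.14 without input replicate 1 or 2, against 0.13 or 0.07 over all windows. In lists cut to the same length by score, limma called 0 of 2647 windows of the genome, 732 of which had an unadjusted p under 0.05. A robust variance estimate there called 41 higher (12.7%, against 10.0% of all windows) and 9 lower (2.80%, against 10.3%) on the 3 chromosomes. Without any model, both pull-downs lay above both inputs in 168 of the 320 windows (52.5%, against 41.9% of all windows) and below both in 43 (13.4%, against 23.8%).

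**Figure D3:**
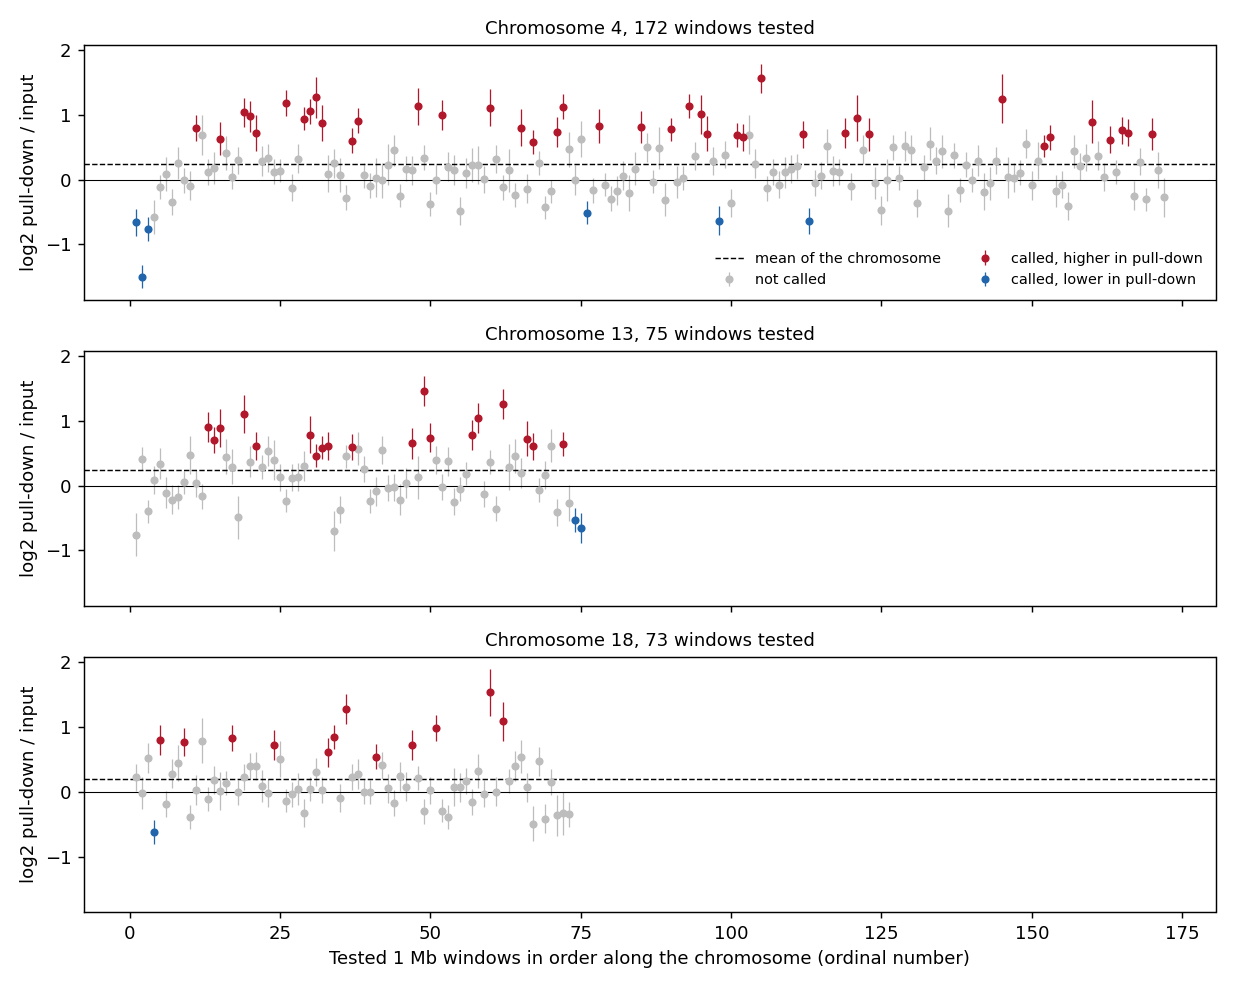
Log2 ratio of pull-down to input in each tested 1 Mb window (points, with the standard error from limma) in order along chromosomes 4, 13 and 18. Red points are the 40, 19 and 12 windows called higher, blue points the 6, 2 and 1 called lower, grey points were not called, and the dashed line is the mean of the chromosome; the first 3 windows of chromosome 4 and the last 2 of chromosome 13 are blue.

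On chromosome 4 the window from 114000001 to 115000000 had the highest ratio. It held 3 and 10 peaks in the inputs, against 51 and 53 in the pull-downs, or 1.02 and 2.37 per 10000 listed peaks against 5.31 and 4.76. Both pull-downs were thus above the higher input, and the log2 ratio was 1.56 (SE 0.23, adjusted p 2.7e-07 in limma). Its size moved with input replicate 1: the log2 ratio was 1.03 without that library and 2.09 without input replicate 2. In lists of equal length it was 0.45. There limma called no window at all, and a robust variance did not call this one. Of its pull-down peaks 23 and 24 were wide, where the inputs had 0 and 5. The window from 32000001 to 33000000 rose with narrow peaks, from 2 and 6 input peaks to 27 and 29 in the pull-downs, of which 0 and 1 were wide (log2 ratio 1.27, SE 0.31, adjusted p 0.0015). Its log2 ratio was 0.84 without input replicate 1, 1.95 in lists of equal length, and the call was lost when either pull-down was left out. The window from 162000001 to 163000000 was of the same kind, with 2 and 4 input peaks against 25 and 21, of which 0 and 1 were wide (log2 ratio 1.25, SE 0.37, adjusted p 0.0092). Without either pull-down the latter missed the filter. Both had an input mean under 1.5 per 10000, and so passed the filter through the pull-downs alone.

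Several called windows of chromosome 4 were neighbours. The longest stretch of them ran from 30000001 to 34000000, 4 windows with log2 ratios from 0.87 to 1.27. Its window at 1.27, named above, passed the filter through the pull-downs alone and so had to be higher. The stretch therefore rests in part on that window for its length. Its first window, which also had one of the 3 highest peak shares of the chromosome, held 14 and 22 input peaks against 83 and 123 pull-down peaks (log2 ratio 0.94, SE 0.18, adjusted p 3.0e-05), and 32 and 47 of the latter were wide. In lists of equal length its log2 ratio was 0.20. Within those 4 windows the first pair carried many wide peaks and the last pair almost none. A stretch of 3 windows from 19000001 to 22000000 had log2 ratios from 0.72 to 1.04.

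The lower windows of chromosome 4 included its first 3. The window from 1000001 to 2000000 had the lowest ratio of the chromosome, with 24 and 46 peaks in the inputs, against 33 and 36 in the pull-downs. Per 10000 listed peaks that was 8.17 and 10.9 against 3.44 and 3.24, a log2 ratio of -1.5 (SE 0.18, adjusted p 1.4e-09), and of -2.38 in lists of equal length. Wide peaks made up 17 and 34 of its input peaks and 19 and 17 of its pull-down peaks, although the pull-down lists were longer. The window from 2000001 to 3000000 held 16 and 31 input peaks, 11 and 18 of them wide, and 38 and 40 pull-down peaks, 9 and 7 of them wide (log2 ratio -0.76, SE 0.18, adjusted p 0.0011, a call lost without pull-down replicate 2). Counted over narrow peaks alone its log2 ratio was 0.19, so its direction rests on wide peaks. The first window, from 1 to 1000000, held 11 and 14 input peaks against 23 and 24 pull-down peaks (log2 ratio -0.66, SE 0.21, adjusted p 0.013). That call was lost without either pull-down, and in lists of equal length its log2 ratio was -1.09.

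On chromosome 13 the highest ratio was in the window from 87000001 to 88000000, with 3 and 7 input peaks against 38 and 44 pull-down peaks. Per 10000 listed peaks these were 1.02 and 1.66 against 3.96 and 3.96, and the groups lay far apart (log2 ratio 1.46, SE 0.24, adjusted p 2.3e-06). Nearly all of its pull-down peaks were narrow, since 2 and 1 were wide. The window from 101000001 to 102000000 rose from 4 and 6 peaks to 37 and 38 (log2 ratio 1.26, SE 0.23, adjusted p 2.7e-05), and in the inputs 0 and 1 of its peaks lay on the plus strand, against 15 and 14 in the pull-downs. The window from 38000001 to 39000000 held 4 input peaks in each replicate and 27 and 29 pull-down peaks (log2 ratio 1.11, SE 0.29, adjusted p 0.0028). The call of the second was lost without pull-down replicate 1 and that of the third without either pull-down. All 3 had an input mean under 1.5 per 10000, and so passed the filter through the pull-downs alone.

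Some stretches of chromosome 13 were called higher over several windows, from 32000001 to 35000000 (3 windows, log2 ratios 0.70 to 0.90) and from 49000001 to 53000000 (4 windows, 0.47 to 0.79). The second of them holds the window from 50000001 to 51000000, which had one of the 3 highest peak shares of the chromosome, with 13 and 19 input peaks against 56 and 76 pull-down peaks (log2 ratio 0.47, SE 0.18, adjusted p 0.042). Among the better-scoring 50% of each list that window had a log2 ratio of -0.52, so its direction is not settled, and its log2 ratio was 0.14 in lists of equal length. The 2 lower windows of chromosome 13 were neighbours near its end. From 113000001 to 114000000 there were 15 and 20 input peaks against 31 and 41 pull-down peaks (log2 ratio -0.53, SE 0.18, adjusted p 0.025). From 114000001 to 115000000 there were 9 and 11 input peaks, 5 and 8 of them wide, and 15 and 24 pull-down peaks, 2 and 8 of them wide (log2 ratio -0.65, SE 0.24, adjusted p 0.034). Over narrow peaks alone the latter had a log2 ratio of 0.24. It stood at -0.43 without pull-down replicate 1 and at -1.01 in lists of equal length, and either pull-down left out ended the calls of both windows, as it did that of the window from 50000001.

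Chromosome 18 had fewer called windows, and its share of higher ones (16.4%) was near that of all windows (15.4%). The 3 windows with the highest ratio held few wide peaks, at most 3 in any library. The window from 39000001 to 40000000 went from 4 and 6 input peaks to 36 and 40 pull-down peaks, of which 1 and 2 were wide. Per 10000 listed peaks the inputs were at 1.36 and 1.42 and the pull-downs at 3.75 and 3.60, a log2 ratio of 1.28 (SE 0.23, adjusted p 1.9e-05). In lists of equal length its log2 ratio was 0.41. There limma called no window at all, and a robust variance did not call this one, though it did in the full lists. The window from 64000001 to 65000000 had a higher ratio, 1.54 (SE 0.36, adjusted p 0.00090), but its inputs held 1 and 8 peaks against 29 and 31, so the size rests on a single peak of input replicate 1. Its log2 ratio was 0.55 without that library, 2.53 without input replicate 2 and 2.29 in lists of equal length. With median centring its adjusted p was 0.056, and the call was also lost without pull-down replicate 1. The window from 66000001 to 67000000 went from 3 and 5 peaks to 29 and 25 (log2 ratio 1.09, SE 0.30, adjusted p 0.0042), a call lost without pull-down replicate 2. All 3 had an input mean under 1.5 per 10000, and so passed the filter through the pull-downs alone. The only lower window, from 3000001 to 4000000, held 14 and 27 input peaks, 3 and 11 of them wide, and 34 and 42 pull-down peaks, 3 and 5 of them wide (log2 ratio -0.61, SE 0.18, adjusted p 0.0095). That call was lost without input replicate 2 and without either pull-down.

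A further comparison asked which windows departed from their own chromosome, after the mean log2 value of the chromosome had been taken off in each library. Of all windows, 10.1% were then higher and 13.1% lower. Chromosome 4 had 15 higher and 19 lower windows (8.72% and 11.05%). Chromosome 13 had 5 and 12 (6.67% and 16%), and chromosome 18 had 8 and 7 (10.96% and 9.59%). The lower share of chromosome 13 and the higher share of chromosome 18 were thus above those of all windows, which was not tested. Of the 320 windows together, 28 (8.75%) were higher and 38 (11.9%) lower, so neither pooled share was above that of the genome. These counts fell to 10 and 5 without pull-down replicate 1 (3.16% and 1.58%, against 2.30% and 5.65% of all windows) and to 5 and 11 without pull-down replicate 2 (1.59% and 3.50%, against 1.62% and 6.67%). They were 40 and 42 without input replicate 1 (12.3% and 12.9%, against 14.2% and 15.3%) and 59 and 62 without input replicate 2 (18% and 18.9%, against 19.5% and 20.3%).

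Several windows named above also departed from their own chromosome. Against it, the chromosome 4 window from 114000001 stood at 1.32 (SE 0.25, adjusted p 0.00073) and that from 1000001 at -1.74 (SE 0.18, adjusted p 6.5e-07). Without input replicate 1 the former stood at 0.77, and in lists of equal length the pair stood at 0.18 and -2.65. On chromosome 13 the window from 87000001 stood at 1.20 (SE 0.22, adjusted p 0.00049). Like the chromosome 18 window from 39000001, it passed the filter through the pull-downs alone, so both had to be higher by list length. On chromosome 18 the windows from 39000001 and from 3000001 stood at 1.08 (SE 0.20, adjusted p 0.00064) and -0.81 (SE 0.18, adjusted p 0.0025). In lists of equal length they stood at 0.12 and -0.73. On chromosome 13, the first window with a peak and the last before the stretch left out lay below the mean: that from 19000001 to 20000000, with 7 input peaks in each replicate and 12 and 13 pull-down peaks, stood at -1.02 (SE 0.27, adjusted p 0.0092). The last bases before the stretch left out, 53000001 to 53599999, held 5 and 11 input peaks against 12 and 16 pull-down peaks. They stood at -0.96 (SE 0.25, adjusted p 0.010). In lists of equal length the window from 19000001 stood at -0.33 and these bases at -0.48. The call of that window was lost without either pull-down, and that of these bases without pull-down replicate 1. On chromosome 18 the window from 71000001 to 72000000 held 6 and 11 input peaks against 14 and 22 in the pull-downs. It stood at -0.68 (SE 0.24, adjusted p 0.042), but at 0.24 in lists of equal length. Leaving out 1 library moved it between -0.92 and -0.43, and its call was lost without either pull-down.

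Windows also departed from their chromosome in level, in input and pull-down alike. At least 2 times the chromosome's mean in all 4 libraries was reached in 2 windows, both on chromosome 4. The first, from 187000001 to 188000000, had the highest mean level over the 4 libraries on the 3 chromosomes, with 39 and 44 input peaks against 93 and 105 pull-down peaks. Its level was 13.3 and 10.4 per 10000 listed peaks in the inputs, against 9.68 and 9.44 in the pull-downs, and by list length, with an adjusted p of 0.19, it was not called. In the pull-downs alone the chromosome 4 windows from 169000001 and from 30000001 had higher means, 10.1 and 9.85 per 10000 against 9.56. Against its own chromosome it was lower, at -0.55 (SE 0.19, adjusted p 0.048), and at -1.62 in lists of equal length (adjusted p 0.0022). That call was lost without input replicate 1 (-0.39) and without pull-down replicate 1 (-0.52) or 2 (-0.55). The other, from 169000001 to 170000000, held 21 and 28 input peaks against 88 and 122 pull-down peaks, of which 34 and 63 were wide. It was higher in the pull-down by list length (log2 ratio 0.52, SE 0.17, adjusted p 0.019) but not called with median centring (adjusted p 0.13) or without either pull-down, and its log2 ratio was 0.11 in lists of equal length. At most 0.5 times the mean in all 4 libraries was reached in 4 windows of chromosome 4, 1 of chromosome 13 and 1 of chromosome 18. The lowest of these, from 49000001 to 50000000 on chromosome 4, held 2, 1, 5 and 4 peaks in inputs 1 and 2 and pull-downs 1 and 2 and was followed by 2 windows without a peak. That on chromosome 18, from 15000001 to 16000000, held 3, 3, 3 and 4 peaks and was followed by 2 windows without a peak as well. Both of these windows were chosen after their values were seen. These gaps lie at the centromeres, whose repeats the assembly does not spell out, and none of the 6 windows passed the filter.

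The windows with the highest level on the other chromosomes exceeded their mean by less. On chromosome 13 they were those from 99000001, 45000001 and 50000001, where the first held 11 and 25 input peaks against 59 and 70 pull-down peaks. On chromosome 18 they were those from 29000001, 3000001 and 56000001, where the first held 16 and 22 input peaks against 50 and 52 pull-down peaks. None of them reached 2 times the mean of its chromosome in all libraries.

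Wide peaks were more clustered along the chromosomes than narrow ones. On chromosome 4 the coefficient of variation over windows was 207% and 182% for wide peaks in the inputs, against 136% and 145% in the pull-downs, against 46.0%, 43.0%, 33.3% and 36.9% for narrow peaks in the same libraries. The 19 windows with the most wide peaks held 56.9% and 50.2% of the wide peaks of chromosome 4 in the inputs, against 43.0% and 45.6% in the pull-downs. For narrow peaks the 19 fullest windows held between 16.8% and 19.2%. On chromosome 13 the coefficient of variation of wide peaks was 140% and 131% in the inputs, against 105% and 102% in the pull-downs, and on chromosome 18 it was 179% and 144% against 101% and 105%. The inputs also held fewer peaks, with a mean of 1.15 and 2.22 wide peaks per window of chromosome 4, against 4.77 and 6.47 in the pull-downs. The part of this in the larger values was not tested. Wide peaks were also fewer than narrow ones, and few counts alone raise a coefficient of variation. The contrast was smaller in the variance over the mean. On chromosome 4 that was 4.93, 7.36, 8.87 and 13.6 for wide peaks (inputs 1 and 2, pull-downs 1 and 2), against 1.33, 1.63, 2.83 and 3.79 for narrow ones. On chromosome 18 it was 2.56, 3.26, 3.15 and 4.22, against 0.93, 1.12, 1.96 and 2.13.

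Only 3 windows, all on chromosome 4, held 20 or more peaks in every library, which the naming of windows by width and strand needed. Among them, the window from 1000001 had the largest wide share, with 17 of 24 and 34 of 46 peaks in the inputs and 19 of 33 and 17 of 36 in the pull-downs. A rule that asked for 20 peaks in both pull-downs only, set after these values had been seen, left 156, 68 and 67 windows on the 3 chromosomes. By it the chromosome 4 window from 102000001 to 103000000 had the largest wide share, with 35 of 62 and 53 of 98 pull-down peaks and 5 of 9 and 7 of 15 input peaks. On chromosome 13 that place went to the window from 50000001, with 23 of 56 and 34 of 76 pull-down peaks. On chromosome 18 it went to the window from 12000001 to 13000000, with 13 of 43 and 17 of 42, while the window from 25000001 to 26000000 held no wide peak among 8, 7, 26 and 23 peaks in inputs 1 and 2 and pull-downs 1 and 2.

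**Figure D4:**
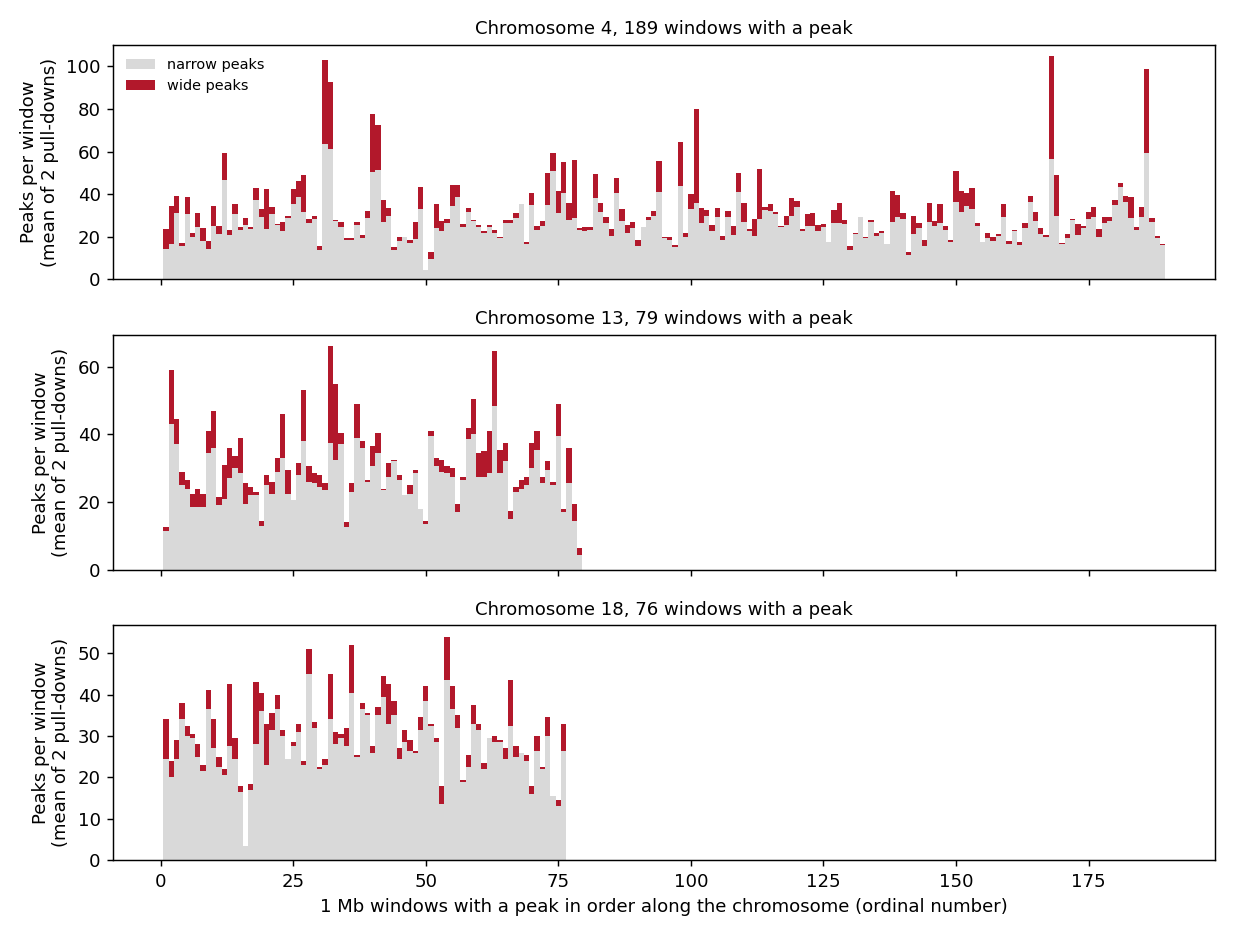
Narrow peaks (grey) and wide peaks (red, stacked on top) per 1 Mb window, as the mean of the 2 pull-downs, in order along chromosomes 4, 13 and 18. Grey bars are fairly even, while red is concentrated in few windows; on chromosome 4 the tallest red bars include the window from 169000001, with 34 and 63 wide peaks, and that from 102000001, with 35 and 53.

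The level of a window was reproducible within each kind of library. As a description across the windows of chromosome 4, which share list lengths, Spearman's rho was 0.91 between the pull-downs, 0.82 between the inputs and 0.61 to 0.74 between a pull-down and an input. On chromosome 13 these values were 0.93, 0.81 and 0.59 to 0.61, and on chromosome 18 they were 0.87, 0.74 and 0.51 to 0.69, so replicates ranked windows more alike than pull-down and input did.

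Strand was considered next, since peaks along 1 transcript share its strand. Both strands were used about equally, with 50.0% and 49.9% of the peaks of the 3 chromosomes on the plus strand in the inputs, against 50.4% and 49.7% in the pull-downs. Runs of successive peaks on 1 strand were short on average, with a mean of 2.17 and 2.23 peaks in the inputs, against 2.27 and 2.32 in the pull-downs. Runs of 10 or more held 3.39% and 6.31% of the input peaks and 7.57% and 8.62% of the pull-down peaks (exact permutation p 0.333). Both pull-downs were above both inputs. Run length also follows the number of peaks in a list, whose part in this was not tested.

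Over peaks of all widths the order differed on other chromosomes. Such runs held 10.8% and 13.6% of the input peaks of the other autosomes and 9.23% and 11.5% of the pull-down peaks, and there the groups overlapped. Among narrow peaks alone the other autosomes had the same order as the 3 chromosomes, with 5.89% and 6.56% against 7.69% and 8.89%. The gene-rich chromosomes 16, 17, 20 and 22 did not, with 9.17% and 10.4% against 6.98% and 7.73%. Over all widths, the 3 chromosomes differed from the other autosomes by -7.38 and -7.30 percentage points in the inputs, and by -1.65 and -2.87 in the pull-downs. All 4 libraries were below (two-sided exact sign-flip p 0.125, the smallest possible). The difference between pull-down and input in that gap was 5.08 percentage points (exact permutation p 0.333).

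**Figure D5:**
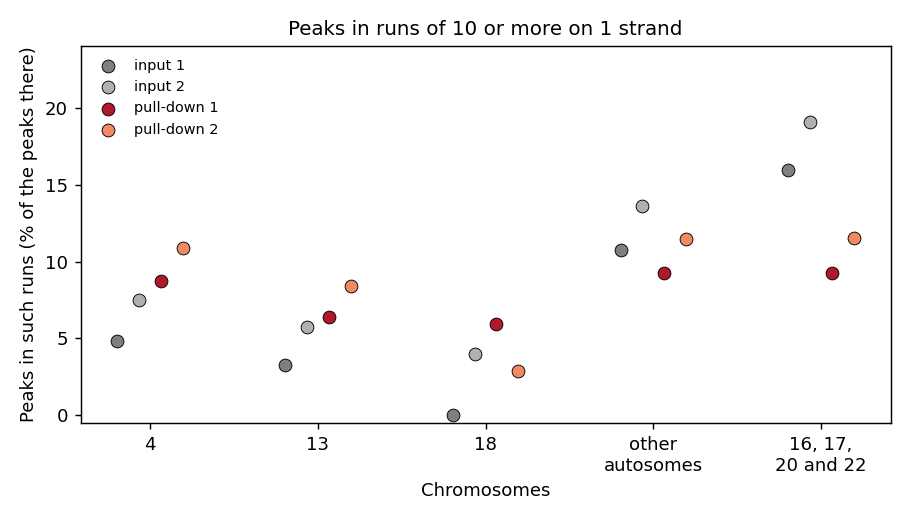
Percent of peaks that lie in runs of 10 or more successive peaks on 1 strand (vertical axis), for chromosomes 4, 13 and 18, the other autosomes and the gene-rich chromosomes 16, 17, 20 and 22, with 1 point per library. On chromosomes 4 and 13 both pull-downs lie above both inputs, on chromosome 18 the groups overlap, and on the gene-rich chromosomes both inputs, at 15.9% and 19.1%, lie above both pull-downs, at 9.27% and 11.5%.

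Wide peaks lay in long runs of their own kind more often than narrow ones. Taken alone, 23.5% and 23.6% of the wide input peaks and 25.0% and 32.4% of the wide pull-down peaks lay in runs of 10 or more wide peaks on 1 strand, against 1.68% and 3.22%, and 5.93% and 5.88%, of narrow peaks among narrow ones. The chromosomes differed: for wide peaks the share was 23.9%, 22.1%, 29.2% and 39.7% on chromosome 4 (inputs 1 and 2, pull-downs 1 and 2), 38.5%, 29.3%, 24.8% and 24% on chromosome 13, and 0%, 21.0%, 9.32% and 15.4% on chromosome 18. The higher level in the pull-downs was thus that of chromosome 4, on chromosome 13 both inputs were higher, and on chromosome 18 the groups overlapped.

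The longest runs of chromosome 4 fell in 1 place in 3 of the 4 libraries, on the minus strand of the window with the highest mean level. In input replicate 1 that run had 30 peaks from 187509794 to 187647820, and in input replicate 2 it had 36 peaks from 187510176 to 187644768. In pull-down replicate 2 it had 50 peaks from 187564916 to 187663706, of which 24 were wide. Over that whole window 5 of 39 and 5 of 44 input peaks and 19 of 93 and 16 of 105 pull-down peaks were on the plus strand. The longest run of pull-down replicate 1 lay elsewhere, with 33 peaks on the plus strand from 75198143 to 75410831, of which 3 were wide.

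On chromosome 13 the inputs and the pull-downs had their longest runs in different places. Those of the inputs, with 19 and 23 peaks, lay on the plus strand between 113344671 and 114294622, across the 2 windows called lower, and 12 and 15 of their peaks were wide. Those of the pull-downs, with 23 and 29 peaks, lay on the minus strand between 111546163 and 111613042, and 5 and 4 of their peaks were wide. Chromosome 18 had shorter runs, with at most 9 and 12 peaks in the inputs, against 15 and 13 in the pull-downs. The run of 12 peaks in input replicate 2, from 3214670 to 3298163 on the plus strand, lay in the window called lower and held 9 wide peaks, while the run of 15 peaks in pull-down replicate 1 held 0.

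A window was called one-sided in a library where it held at least 20 peaks and at least 80% of them lay on 1 strand. Such windows were few: 2 of 3 and 4 of 25 in the inputs, and 5 of 292 and 8 of 317 in the pull-downs. With 3 windows to judge in input replicate 1, the shares of 66.7% and 16% against 1.71% and 2.52% (exact permutation p 0.333) rest on very few windows in the inputs. With a minimum of 10 peaks they were 9.21% and 7.65% against 2.05% and 2.35%. On the other autosomes the shares at 20 peaks were 12.4% and 10.4% in the inputs, against 2.25% and 2.0% in the pull-downs, so the pull-downs differed from those of the 3 chromosomes by -0.54 and 0.52 percentage points, in opposite directions.

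The last question was whether the same sites were listed again, counting peaks on the same strand that shared 1 base or more. Of the peaks on the 3 chromosomes, 82.3% of input replicate 1 were found in input replicate 2 and 55.6% the other way, and 67.3% of pull-down replicate 1 were found in replicate 2 and 59.3% the other way. These were 77.0%, 53.8%, 65.2% and 56.1% on the other autosomes. In each of the 4 libraries the value of the other autosomes lay below the 95% Wilson interval of the 3 chromosomes (80.8 to 83.7, 54.1 to 57.2, 66.4 to 68.2 and 58.4 to 60.1). Within widths this held for narrow peaks of input replicate 1 and both pull-downs, and for wide peaks of pull-down replicate 2. For wide peaks of input replicate 1 and pull-down replicate 1 the other autosomes lay inside the interval. In input replicate 2 they lay inside for both widths, at 57.6% against 58.5% (56.8 to 60.2) for narrow peaks. Its wide peaks went the other way, with 43.99% on the other autosomes against 42.8% (39.2 to 46.5). Those intervals cover counting error only, and neighbouring peaks are not independent.

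Input peaks on the gene-poor chromosomes were found in a pull-down in a higher share than those elsewhere, as a description of these lists. Of them, 82.1% (80.6 to 83.6) and 78.0% (76.6 to 79.2) had a peak in either pull-down, against 69.4% and 66.2% on the other autosomes. The difference was seen within both widths. For narrow input peaks the shares were 87.6% and 85.1%, against 79.4% and 78.3% on the other autosomes. For wide input peaks they were 49.7% and 46.0%, against 36.9% and 35.5%. Chromosome 18 did not share in the wide difference, at 37.7% (26.6 to 50.3) and 35.3% (27.3 to 44.2). Chromosome 4 stood at 50.0% and 49.3%, and chromosome 13 at 57.1% and 45.2%. In the other direction, 29.4% and 26.1% of the pull-down peaks had a peak in either input, against 29.8% and 26.5% on the other autosomes. In lists of equal length the mean share of pull-down peaks found in an input was 52.9%, against 27.7% in the whole lists, and that of input peaks found in a pull-down was 62.8% against 80.04%.

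Sites listed in both pull-downs numbered 6919 on the 3 chromosomes, and 4047 of them (58.5%, 57.3 to 59.6) had no peak in either input. By chromosome these were 2244 of 3805 on chromosome 4, 932 of 1583 on chromosome 13 and 871 of 1531 on chromosome 18, or 59.0%, 58.9% and 56.9%. The intervals of the 3 overlapped. Of the wide sites, 801 of 1250 (64.1%, 61.4 to 66.7) were free of input peaks, and of the narrow ones 3246 of 5669 (57.3%, 56.0 to 58.5). On the other autosomes 56.9% of all sites were free of input peaks (56.5 to 57.3), with 60.8% of the wide and 55.9% of the narrow ones.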

How the data were processed

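CLIP-seq peaks were taken from 4 lists, 1 per sample, that the authors deposited: 2 inputs and 2 pull-downs of HCT116. Each row gives a position, a strand and a score. As deposited, the score is whole, never below 10 and of unstated meaning; it only ranked peaks within a list. The other deposited columns used are positions, in bases. Per the submitters' processing notes, STAR, featureCounts and GRCh38 were used, without versions; the peak caller is not given in the sources used here, and the positions fit GRCh37. No read depth is known, so intervals cover counting error only.

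Samples were grouped by the labels' titles. The members, comparisons and rules were chosen with earlier results of these data known. Peaks were assigned by midpoint to 1 Mb windows. Values were log2 of peaks per 10000 listed, with 0.5 added to each count. Windows with a mean of at least 1.5 per 10000 were tested in limma 3.58.1 (R 4.3.3; lmFit, eBayes with a trend), with Benjamini-Hochberg adjustment at 0.05 over all chromosomes. A second fit first took off each library's chromosome mean. Single values had exact permutation tests. The fit was tested on simulated lists. Same-numbered input and pull-down libraries deviated together only weakly (correlation 0.05 over 2706 windows), so samples were not paired.

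Windows were named by rule: on each chromosome the 3 with the highest share, up to 3 called with the highest and the lowest ratio and up to 2 called in each direction against the chromosome (each with a peak in every library), the extremes of wide share and strand among windows with 20 peaks in every library, and each library's longest run. Other windows are given as chosen after their values were seen. Alternatives were score, width, filter, scaling, offset, weights, window and library choices.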

Additional observations from a re-analysis of the deposited data

How the results depend on the processing

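The log2 ratios of the shares on chromosomes 4, 13 and 18 kept their direction under every alternative run, from 0.10 to 0.70. Window counts moved, partly with the number tested. By list length, 71 of 320 windows were higher (22.2%, against 15.4% of all windows) and 9 lower (2.81%, against 11.6%). The higher count was 24 of 318 among the better-scoring 50% (7.55% against 5.56%), 25 of 110 with a filter at 3 per 10000 (22.7% against 12.3%), 35 of 320 with median centring (10.9% against 8.06%), 27 of 333 for narrow peaks (8.11% against 5.09%) and 22 of 138 for wide peaks (15.9% against 10.0%). It was 0 of 322 in lists of equal length, with or without limma-voom weights (41 with a robust variance, 12.7% against 10.0%). All 23 of the 71 still tested with the filter at 3 were called there. That was all but fixed, since the same log2 ratios were fitted again, so it is no separate support. The lower count was 5 with that filter (4.55% against 21.0%) and 0 in lists of equal length with either weighting. Leaving out 1 library gave 13 to 93 higher and 1 to 22 lower; the arm left with 1 sample is then assumed to vary like the other. Of the 71 windows, 65 of 69 tested kept their sign in lists of equal length and 27 were called there with a robust variance. The shorter lists are cut from those in which the 71 were called, so this is no separate support either. In the lists of equal length 73 windows had no spread at all within groups.

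Against the own chromosome, 28 windows were higher and 38 lower. Among the better-scoring 50% these were 16 and 23 (5.03% and 7.23%, against 4.40% and 8.54% of all windows), with the filter at 3 they were 16 and 12 (14.5% and 10.9%, against 16.4% and 16%), for narrow peaks 13 and 14 (3.90% and 4.20%, against 3.79% and 6.03%) and for wide peaks 14 and 13 (10.1% and 9.42%, against 7.50% and 12.7%). In lists of equal length they were 5 and 9 (1.55% and 2.80%, against 1.28% and 5.97%). With limma-voom weights they were 3 and 8 there (0.93% and 2.48%, against 0.91% and 6.08%). A robust variance gave 14 and 17 (4.35% and 5.28%, against 4.16% and 9.26%). Windows shifted by 500 kb left 24 lower (7.5%, against 11.6% of all windows). Leaving out 1 library gave 5 to 59 higher and 5 to 62 lower.

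The wide-share difference of -0.66 percentage points was 0.084 with wide set from 30 bases, and -2.60 to 1.28 without 1 library. The difference in one-sided windows was 2.47 percentage points for narrow peaks. Requiring 50% overlap of both peaks gave 51.8% of pull-down peaks in the other pull-down, 23.1% in either input and 69.7% of input peaks in either pull-down; lists of equal length gave 52.9% and 62.8% for the latter pair. Some named windows reversed: for narrow peaks, the chromosome 4 window from 2000001 to 0.19 (0.063 against its chromosome) and the chromosome 13 window from 114000001 to 0.24 (0.068); among the better-scoring 50%, that from 50000001 to -0.52; in lists of equal length, against their chromosome, the chromosome 4 window from 30000001 to -0.064 and the chromosome 18 window from 71000001 to 0.24. Beyond these constructions, the cause was not tested.

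With a replicate block, which rests on numbers that need not pair the samples, 70 windows were higher and 9 lower. These were 21.9% and 2.81%, against 15.7% and 12.2% of all windows. Against the own chromosome 36 were higher and 45 lower (11.25% and 14.1%, against 12.0% and 15.5% of all windows). The log2 ratio of the chromosome 4 share was 0.28 with that block. Read depth is unknown.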

Other observations

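The stretch of chromosome 13 left out above, between 53600000 and 72000000, held 78 and 118 input peaks against 414 and 419 pull-down peaks. That was 0.27% and 0.28% of the input lists and 0.43% and 0.38% of the pull-down lists, a log2 ratio of 0.57 (exact permutation p 0.333). Nearly all of its peaks were narrow, since wide ones made up 1.28% and 2.54% in the inputs, against 3.86% and 4.77% in the pull-downs. Of its 12 windows tested in the same fit, 3 were higher (25%, against 15.4% of all windows) and 0 lower (against 11.6%). An unadjusted p under 0.05 in limma was reached by 4 of the 12, and by 1021 of all 2706 windows. With median centring none of the 12 passed, where 8.06% of all windows were higher and 11.3% lower.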
